A study of Mus musculus with 28 samples.

Results

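Untreated induced regulatory T (iTreg) cells that lack the histone demethylase JMJD3 were compared with wild-type (WT) iTreg cells. The members are 7 of the 28 libraries of the study, chosen by their labels: 3 untreated iTreg libraries of knockout (KO) animals and 4 of WT animals, compared unpaired over all genes. The cells were CD4+ T cells from the spleen of C57BL/6 mice. Naive cells (CD44-, CD62L+, CD25-) were sorted, activated through CD3 and CD28 by plate-bound antibodies (1 µg/ml of each) and given TGF-beta1 at 2 ng/ml. Live cells were sorted again after 68 h. KO animals carried JMJD3 fl/fl with CD4cre, a genotype that targets Kdm6b, the gene of JMJD3, in T cells. CD4cre is active from the thymus on, so the naive cells came from T cells that had already met the recombinase. The animals' age and sex, and whether the WT controls carried the recombinase, are not given in the sources used here. The same 7 animals also gave iTreg cells cultured with 100 µM DFMO, an inhibitor of the polyamine enzyme ornithine decarboxylase, and Th17n cells (non-pathogenic Th17 cells, made with IL-6 at 25 ng/ml plus TGF-beta1 at 2 ng/ml) with and without DFMO. Those libraries are used below to set the untreated iTreg values in context.

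JMJD3 removes methyl groups from lysine 27 of histone H3 (H3K27), a mark laid down by Polycomb repressive complex 2 that keeps genes silent. UTX, encoded by Kdm6a, has the same activity. In CD4 T cells H3K27 methylation covers the genes of lineages that a cell has not taken, among them Tbx21, which encodes the Th1 master regulator T-bet. TGF-beta drives naive CD4 T cells to express Foxp3, the transcription factor that defines regulatory T cells, and holds back the Th1 programme of interferon-gamma and cytotoxic genes.

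Depth was 2312481 to 2911716 estimated counts per library in KO and 2792847 to 4753768 in WT. The KO libraries were mostly shallower, though KO replicate 3 was deeper than WT replicate 4. The first principal component of the 7 libraries held 30.2% of the variance and separated KO (-26.57 to -22.03) from WT (5.2 to 24.9). The summed level of the T cell markers was 3199 to 3540 CPM (counts scaled to the effective library size) in KO and 2817 to 3370 CPM in WT. Of 69 matched marker genes of the other 12 cell types 12 had enough counts to be tested, and edgeR called none of them (1 had an unadjusted p under 0.05, and DESeq2, limma voom and limma on log2 TPM called 0). The markers Ncr1 and Klrb1c (natural killer cells), C1qa and Lyz1 (macrophages), S100a9 and Elane (neutrophils) and Itgax (dendritic cells) were at 0 counts in all 7 libraries. Other markers of some lists were detected. Dendritic cell markers summed to 23.8 to 28.2 CPM in KO and 21.1 to 27.9 CPM in WT. The sums were 2.88 to 8.70 and 3.95 to 9.06 CPM for macrophages and monocytes, and 14.8 to 16.0 and 6.84 to 16.4 CPM for B cells. Stromal and endothelial markers summed to 29.7 to 36.6 CPM in KO and 18.6 to 35.9 CPM in WT. In bulk libraries, fewer cells expressing a gene and less RNA per cell cannot be told apart.

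Across 10985 tested genes, 582 (5.3%) differed between KO and WT at an adjusted p under 0.05 in edgeR's quasi-likelihood test with Benjamini-Hochberg adjustment. Of these, 348 (3.17%) were higher and 234 (2.13%) were lower in KO, and 169 changed at least 2-fold. The median log2 fold change (KO minus WT throughout, ± its standard error where given) over all tested genes was -0.01. KO and WT libraries did not overlap in CPM for 1707 genes (15.5%). Without KO replicate 3 the count fell to 284, without KO replicate 1 to 293 and without WT replicate 3 to 365, which leaves fewer samples in the test. Higher and lower genes differed in base composition. The median GC content of the transcripts was 53.9% in genes higher in KO, 46.5% in genes lower in KO and 50.5% in genes not called. From the lowest to the highest of 5 equal bins of genes by GC content, the share called higher went from 1.00% to 5.46% and the share called lower from 3.41% to 0.865%. Single libraries also tilted: the median log2 deviation of genes in the highest GC bin minus that in the lowest was 0.32 in KO replicate 3 and -0.23 in WT replicate 2, and between -0.12 and 0.09 in the other 5. With GC content as an offset in the model 516 genes were called, 300 higher and 216 lower, and 414 of the 582 were among them. Of the 106 called genes followed through all alternatives 12 lost their calls with the offset, namely Aldoc, Alox15, Cd247, Fasl, Gps2, Irgm1, Kdm4b, Mcl1, Pcgf5, Pim1, Rnf167 and Sh2d1a (edgeR adjusted p from 0.0537 to 0.12).

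**Figure D1:**
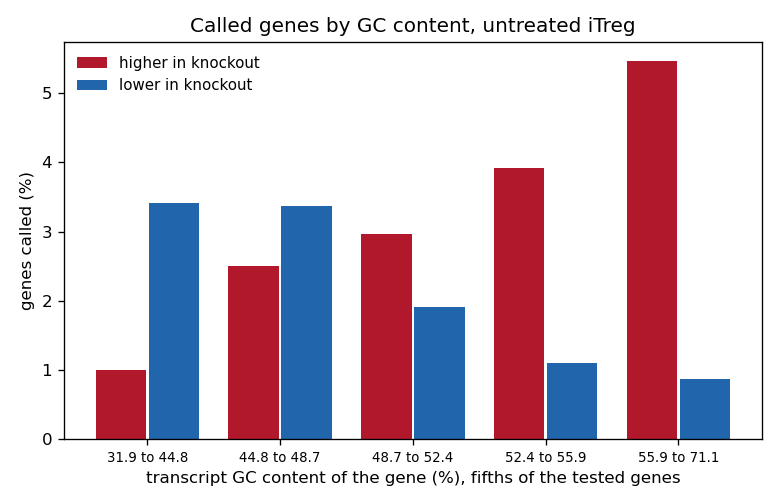
Percent of tested genes called higher (red) or lower (blue) in KO untreated iTreg cells, in 5 equal bins of the genes by transcript GC content in percent. The share called higher goes from 1.00% to 5.46% and the share called lower from 3.41% to 0.865%.

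The targeted gene was read first. Kdm6b stood at 31.1, 33.3 and 29.1 CPM in the KO libraries and 38.01, 48.8, 44.99 and 41.5 CPM in the WT libraries. All 3 KO libraries lay below all 4 WT libraries, yet the difference was not called (log2 fold change -0.48 ± 0.20, adjusted p = 0.188 by edgeR). The values are per gene and do not separate the floxed exons, so transcripts that lack them still count, and the level does not measure the loss of the protein. Kdm6a, the other H3K27 demethylase gene, stood at 30.6 ± 4.07 CPM in KO and 30.5 ± 4.999 CPM in WT (mean ± SD, n = 3 for KO and n = 4 for WT, here and below) and was not called (log2 fold change -0.01 ± 0.16, adjusted p = 0.984 by edgeR). Among 20 tested genes of the Jumonji family of demethylases 3 were higher and 0 lower in KO, against 3.17% higher and 2.13% lower over all tested genes. They were Kdm5b (log2 fold change 0.58 ± 0.11), an H3K4 demethylase, Jmjd6 (log2 fold change 0.47 ± 0.11) and Kdm4b (log2 fold change 0.74 ± 0.19), an H3K9 demethylase. The call of Jmjd6 was lost without KO replicate 1 or KO replicate 3 (log2 fold change 0.42 and 0.44), and that of Kdm4b without WT replicate 4, KO replicate 1 or KO replicate 3 (0.63, 0.74 and 0.68). In a limma fit of log2(TPM + 1) the value of Kdm4b was 0.29 (adjusted p = 0.69). Of 27 Polycomb genes 1 was higher and 1 lower. Cbx7, a reader of H3K27 methylation in Polycomb repressive complex 1, was higher (log2 fold change 0.66 ± 0.14), but it was not called in a limma fit of log2(TPM + 1), where its value was 0.19. Pcgf5, another subunit of that complex, was lower (log2 fold change -0.55 ± 0.15), with the call lost without WT replicate 1 or 3 or any 1 KO replicate (log2 fold changes from -0.59 to -0.45). Ezh2, the H3K27 methyltransferase, stood at 119 ± 4.803 CPM in KO and 137 ± 11.3 CPM in WT and was not called. None of the 17 H3K4 methyltransferase complex genes was called by edgeR (1 at an unadjusted p under 0.05) or by DESeq2 or limma (0 each).

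Ly6a and genes of the Th1 and cytotoxic programme were among the largest decreases. Ly6a, which encodes the activation antigen Sca-1, stood at 23.5, 7.81 and 13.7 CPM in the KO libraries and 487, 185, 502 and 183 CPM in the WT libraries. Every KO library was below every WT library, and the level fell by 4.48 on the log2 scale (SE 0.59, edgeR adjusted p = 1.33e-05). Gzmb, the cytotoxic protease granzyme B, stood at 9.05, 15.6 and 9.70 CPM in the KO libraries and 340.1, 68.6, 245 and 112 CPM in the WT libraries. The groups again did not overlap (log2 fold change -4.08 ± 0.55, adjusted p = 2.18e-05, edgeR). Nkg7, a protein of cytotoxic granules, stood at 76.7, 75.3 and 71.9 CPM in the KO libraries and 411, 128, 484 and 198 CPM in the WT libraries. The KO libraries were close to one another and below all WT libraries (log2 fold change -2.03 ± 0.41, adjusted p = 0.00278, edgeR), although a limma fit of log2(TPM + 0.1) gave an adjusted p of 0.0645. The summed level of 8 markers of natural killer and innate lymphoid cells was 0.335 to 0.823 CPM in KO and 0.348 to 3.16 CPM in WT, with Ncr1, Klrb1c and Fcer1g at 0 in all 7 libraries. Of the CD8 T cell markers, Cd8a stood at 0, 0.411 and 0.669 CPM in the KO libraries and 2.66, 2.17, 3.42 and 1.39 CPM in the WT libraries, too low to be tested. The groups did not overlap in Cd8a. Cd8b1 stood at 21.1 ± 3.08 CPM in KO and 19.8 ± 4.09 CPM in WT and was not called. The part of these cells in the levels of Gzmb and Nkg7 was not tested. In Ly6a, Gzmb and Nkg7 alike, WT replicates 1 and 3 stood above WT replicates 2 and 4.

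Tbx21 (T-bet) stood at 5.07, 4.52 and 8.03 CPM in the KO libraries and 37.8, 34.6, 44.5 and 8.71 CPM in the WT libraries. WT replicate 4 lay near the KO libraries while the other WT libraries were well above them, and the gene was called lower (log2 fold change -2.42 ± 0.64, adjusted p = 0.0229, edgeR). This call was lost without WT replicate 1 (log2 fold change -2.31), WT replicate 3 (-2.21), KO replicate 1 (-2.31), KO replicate 2 (-2.26) or KO replicate 3 (-2.72), and in limma voom with the animal as a random effect (-2.28, adjusted p = 0.169). Of the 17 tested genes of the Th1 list, 6 were lower and 1 was higher in KO, against 2.13% lower and 3.17% higher over all tested genes, with a median log2 fold change of -0.84 against -0.01 over all tested genes, and 16 of 17 values were below 0. Besides Gzmb and Tbx21 the lower members were Il12rb2, a chain of the interleukin-12 receptor (25.2 ± 1.70 CPM in KO and 85.8 ± 50.1 CPM in WT, log2 fold change -1.77 ± 0.43), Il18r1, a chain of the interleukin-18 receptor (23.3 ± 3.36 CPM in KO and 46.3 ± 9.56 CPM in WT, log2 fold change -0.98 ± 0.25), Fasl, the death ligand (5.39 ± 2.03 CPM in KO and 14.01 ± 4.81 CPM in WT, log2 fold change -1.37 ± 0.39), and Eomes, the T-box factor related to T-bet (0.611 ± 0.413 CPM in KO and 2.95 ± 0.676 CPM in WT, log2 fold change -2.22 ± 0.66). The chemokine Ccl5 was the higher member (28.1 ± 12.6 CPM in KO and 7.36 ± 3.34 CPM in WT, log2 fold change 1.93 ± 0.36, adjusted p = 0.00102, edgeR). The count of lower members was 1 without KO replicate 3, 2 without KO replicate 1, 2 without WT replicate 1, 3 without WT replicate 3, and 4 or 5 without each of the other libraries. It was 3 in limma on log2(TPM + 0.1), 2 without KO replicate 3 and WT replicate 2 together, 8 with the replicate block, 10 with the GC offset and the block, and 10 of 18 with no filter on low counts. Il12rb2 lost its call without WT replicate 1, KO replicate 1 or KO replicate 3 (log2 fold changes -1.40, -1.82 and -1.72), and Il18r1 without KO replicate 2 or 3 (-0.87 and -0.99). Fasl lost it without WT replicate 1, 3 or 4 or KO replicate 1 or 3 (from -1.65 to -1.11 over all libraries left out), and Eomes without any 1 of the 7 libraries (from -2.89 to -1.90).

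Ifng itself, the signature cytokine of Th1 cells, had 0 counts in all 3 KO libraries and 7.75, 0.395, 16.8 and 0.348 CPM in WT replicates 1 to 4. It was high in the same pair of WT libraries as Gzmb and near 0 in the other pair. The 0 counts in KO allow up to 3 counts over the group, against 99 counts in WT. edgeR did not call the gene (adjusted p = 0.165), whereas with the replicate number as a block it did (log2 fold change -7.93, adjusted p = 0.000736). The value of -7.93 was fitted with KO at 0 counts and is no bound. Cxcr3, a chemokine receptor and T-bet target, stood at 4.84 ± 1.84 CPM in KO and 10.2 ± 3.35 CPM in WT and was not called (adjusted p = 0.129, edgeR). Near 2 of the decreased genes another gene was also called lower. These pairs were picked from called genes, and neighbours that were not called were not counted. Tbkbp1 lies 20.84 kb from Tbx21 on chromosome 11 and had 3 counts in all KO libraries together against 57 in WT, a scaled WT to KO ratio of 9.80 (95% counting interval 3.19 to 48.9). Its call was lost without WT replicate 1 or 3 or any 1 KO replicate (fitted log2 fold changes from -4.03 to -2.56). Ly6c1 lies 45.99 kb from Ly6a on chromosome 15 and had 1 count in KO against 116 in WT, a ratio of 59.8 (10.53 to 2384). Its call was lost in limma voom with the animal as a random effect (-4.41, adjusted p = 0.0769). Reads shared among the similar Ly6 genes could have been split between them by the authors' counting.

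**Figure D2:**
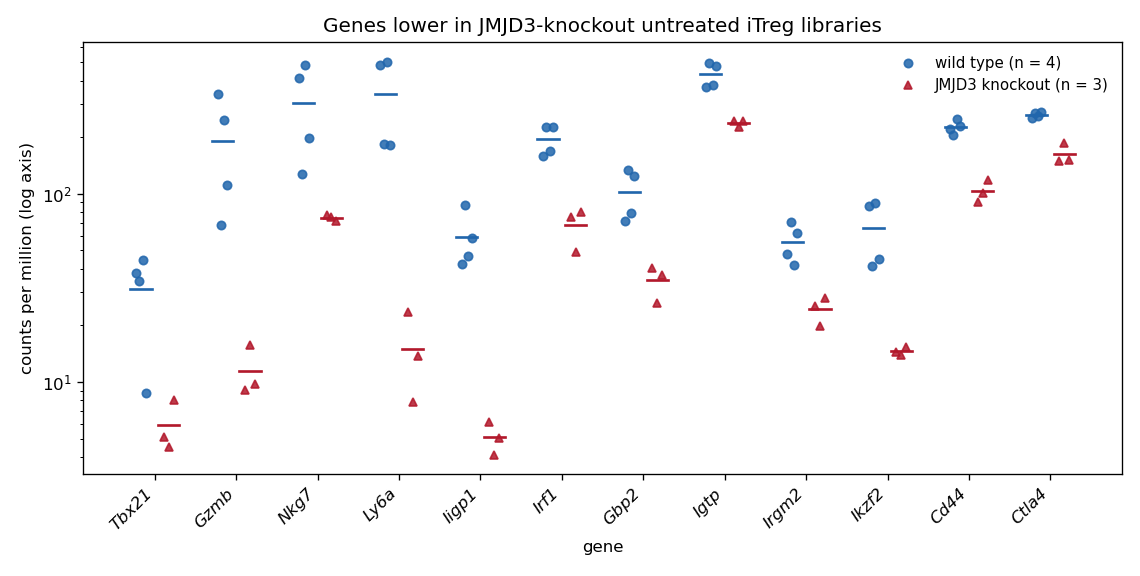
CPM (log axis) of 12 genes lower in KO, one point per library (WT blue circles, n = 4; KO red triangles, n = 3), with a line at each group's mean. The KO points lie below the WT points in all 12 genes, with WT replicate 4 of Tbx21 at 8.71 CPM the nearest to the KO range.

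Of 28 tested interferon-stimulated genes 8 were lower and 2 were higher in KO, against 2.13% lower and 3.17% higher over all tested genes, with a median log2 fold change of -0.13 and 15 of 28 values below 0. The lower members were the factor Irf1 and 7 interferon-inducible GTPase genes that act in defence against intracellular pathogens (Iigp1, Gbp2, Gbp4, Gbp5, Gbp6, Igtp and Irgm1). Irf1 stood at 74.9, 49.4 and 79.6 CPM in the KO libraries and 159, 226, 169 and 227 CPM in the WT libraries. The highest KO library was well below the lowest WT library (log2 fold change -1.51 ± 0.30, adjusted p = 0.00199, edgeR). Gbp2 stood at 40.5, 26.3 and 37.1 CPM in the KO libraries and 71.9, 135, 79.5 and 125 CPM in the WT libraries. WT replicates 2 and 4 were the higher pair here, the reverse of Ly6a and Gzmb, and all KO libraries were lower still (log2 fold change -1.56 ± 0.32, adjusted p = 0.00327, edgeR). Iigp1 stood at 6.15, 4.11 and 5.02 CPM in the KO libraries and 42.6, 87.2, 46.6 and 58.2 CPM in the WT libraries, an 11.4-fold decrease by the fit (log2 fold change -3.52 ± 0.60, adjusted p = 0.000416, edgeR). Igtp stood at 245, 226 and 244 CPM in the KO libraries and 369, 496, 379 and 481 CPM in the WT libraries (log2 fold change -0.85 ± 0.19, adjusted p = 0.00684, edgeR). Irgm2 and Tgtp1, 2 further GTPases of this family outside the list, were also lower (log2 fold change -1.18 ± 0.24 and log2 fold change -1.80 ± 0.38). Irgm2 overlaps Igtp on the same strand of chromosome 11 (58199618 to 58222782 and 58199556 to 58207591 in GRCm38), so some of their reads may not be separable. Gbp genes are also similar to one another and could share reads. Gbp6 was lower as well (17.6 ± 2.43 CPM in KO and 76.8 ± 22.7 CPM in WT, log2 fold change -2.12 ± 0.46), as were Gbp4 (log2 fold change -1.17 ± 0.32), Irgm1 (log2 fold change -1.01 ± 0.30) and Gbp5 (log2 fold change -0.92 ± 0.26). The last 3 lost their calls when single libraries were left out: Gbp4 without WT replicate 1 or 3 or any 1 KO replicate (-1.21 to -1.06), Irgm1 without WT replicate 2 or 4 or any 1 KO replicate (-1.08 to -0.83) and Gbp5 without WT replicate 1, 2 or 4 or KO replicate 2 or 3 (-0.92 to -0.69). The count of 8 became 5 without KO replicate 2 and 5 without KO replicate 3, and 4 with both KO replicate 3 and WT replicate 2 left out, an alternative chosen after seeing the data.

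The 2 higher members belong to the antiviral arm of the list. Ifit1, which binds viral RNA, stood at 9.05, 9.87 and 15.7 CPM in the KO libraries and 6.54, 5.34, 2.63 and 3.14 CPM in the WT libraries (log2 fold change 1.36 ± 0.40, adjusted p = 0.0445, edgeR), and Ddx58, the RNA sensor RIG-I, stood at 30.6 ± 6.77 CPM in KO and 17.1 ± 5.07 CPM in WT (log2 fold change 0.82 ± 0.25, adjusted p = 0.0472, edgeR), with 1 KO library inside the WT range. Dhx58, a relative of RIG-I outside the list, was called higher too (log2 fold change 0.72 ± 0.20, adjusted p = 0.0260, edgeR). The calls of Ifit1 and Ddx58 were lost without single libraries, Ifit1 without WT replicate 3 or 4 or any 1 KO replicate (1.07 to 1.52) and Ddx58 without WT replicate 1, 3 or 4 or KO replicate 1 or 2 (0.65 to 0.84). Isg15, a ubiquitin-like antiviral protein, stood at 10.1, 15.6 and 23.1 CPM in the KO libraries and 2.90, 13.6, 1.58 and 12.5 CPM in the WT libraries and was not called (log2 fold change 1.09 ± 0.52, adjusted p = 0.268, edgeR). With the replicate block it was called (log2 fold change 1.43, adjusted p = 0.0402). In the WT libraries Isg15 was low in replicates 1 and 3, those with high Gzmb and Ly6a, and the same held for Irf7 (2.90, 27.9, 5.26 and 38.3 CPM in WT replicates 1 to 4).

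Promoter letters were read for the lower interferon-inducible and cytotoxic genes because several of each were called lower in KO. Stretches of 250 bases upstream of the RefSeq start (GRCm38.p6) were searched on both strands for the STAT site GAS (TTCNNNGAA), the core of the interferon-stimulated response element, ISRE (GAAA, any 2 bases, GAAA), and a T-box site (AGGTGTGA). GAS and ISRE letters can overlap, and each was counted on its own. In all 27025 promoters of the table the matches stood in 7.18%, 3.04% and 1.14%. Of the tested genes, 8671 matched a promoter by symbol. A GAS match stood in 6.17% of them, in 10.7% of the 177 genes called lower and in 3.52% of the 284 called higher. An ISRE core stood in 2.73%, 7.91% and 2.82% of these sets, and the T-box site in 0.773%, 1.13% and 0.352%. The transcripts of all genes called lower had a median GC content of 46.5%, against 53.9% in all genes called higher. The part of base composition in these shares was not tested. The 177 lower genes include the list members given next, which are no separate set. Of the 8 lower members of the interferon list 5 matched a promoter, 3 of them with GAS (Gbp5, Igtp and Irf1) and 4 with an ISRE core (Gbp2, Gbp5, Igtp and Irgm1). The sequences of Irf1, Gbp2 and Igtp show these matches in genes whose decrease did not depend on any 1 library, and that of Nkg7, which is not in the Th1 list, shows a GAS and a T-box match. Of the 6 lower members of the Th1 list 1 had a GAS match (Il12rb2), 1 an ISRE core (Eomes) and 0 a T-box match, and the windows of Tbx21 and Gzmb held none of the 3 motifs. They run 5′ to 3′ on the gene's strand and the capitals mark the matches, which are a description of letters and not of binding. They lie at chr11:53769764-53770013 for Irf1, chr3:142620413-142620662 for Gbp2, chr11:58199306-58199555 for Igtp and chr7:43436888-43437137 for Nkg7, all on the plus strand. Irf1 has 2 starts in the table, of which 1 is shown.
Irf1: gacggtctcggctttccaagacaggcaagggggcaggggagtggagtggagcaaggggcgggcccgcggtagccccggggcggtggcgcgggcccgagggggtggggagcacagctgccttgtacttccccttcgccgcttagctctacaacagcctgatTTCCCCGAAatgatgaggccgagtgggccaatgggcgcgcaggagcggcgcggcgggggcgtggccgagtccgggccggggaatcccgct
Gbp2: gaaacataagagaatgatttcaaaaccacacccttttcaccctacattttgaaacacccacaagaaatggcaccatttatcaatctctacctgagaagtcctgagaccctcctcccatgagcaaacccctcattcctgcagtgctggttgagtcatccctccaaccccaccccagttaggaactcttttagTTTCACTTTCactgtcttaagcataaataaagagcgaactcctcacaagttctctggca
Igtp: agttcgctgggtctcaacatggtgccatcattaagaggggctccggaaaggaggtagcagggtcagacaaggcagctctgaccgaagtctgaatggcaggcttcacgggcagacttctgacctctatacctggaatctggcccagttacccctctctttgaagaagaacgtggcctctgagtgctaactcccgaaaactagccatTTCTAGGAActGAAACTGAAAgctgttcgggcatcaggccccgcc
Nkg7: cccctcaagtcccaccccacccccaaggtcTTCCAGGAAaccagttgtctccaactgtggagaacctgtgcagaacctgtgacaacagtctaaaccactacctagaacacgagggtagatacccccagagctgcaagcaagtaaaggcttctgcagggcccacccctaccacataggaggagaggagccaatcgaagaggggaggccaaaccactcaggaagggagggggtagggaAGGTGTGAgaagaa

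Genes of regulatory T cell identity were called in both directions or not at all. Foxp3 stood at 259, 343 and 314 CPM in the KO libraries and 216, 339, 236 and 335 CPM in the WT libraries, with overlapping groups (log2 fold change 0.12 ± 0.17, adjusted p = 0.792, edgeR). Il2ra, the interleukin-2 receptor alpha chain, stood at 969 ± 57.6 CPM in KO and 924 ± 94.4 CPM in WT, and Tnfrsf18, the receptor GITR, stood at 905 ± 42.9 CPM in KO and 896 ± 104 CPM in WT, and neither was called. Of 25 tested genes of the regulatory T cell list 3 were lower and 3 were higher in KO, with a median of 0.12. Over all tested genes 2.13% were lower and 3.17% higher. The lower members were Ikzf2, Ctla4 and Entpd1. Ikzf2, which encodes the transcription factor Helios, stood at 14.5, 13.98 and 15.4 CPM in the KO libraries and 85.7, 41.3, 89.7 and 45.3 CPM in the WT libraries. Its KO libraries lay close to one another and below all WT libraries (log2 fold change -2.16 ± 0.25, adjusted p = 3.06e-06, edgeR), and WT replicates 1 and 3 were again the higher pair. Ctla4, an inhibitory receptor of regulatory T cells, stood at 150.2, 186 and 151 CPM in the KO libraries and 253, 268, 259 and 273 CPM in the WT libraries (log2 fold change -0.70 ± 0.14, adjusted p = 0.00224, edgeR). Entpd1, the ectonucleotidase CD39, stood at 6.40 ± 1.74 CPM in KO and 15.7 ± 3.79 CPM in WT (log2 fold change -1.29 ± 0.33, adjusted p = 0.0190, edgeR), a call lost without WT replicate 1 or 3 or KO replicate 1 or 2 (log2 fold changes -1.19, -1.17, -1.14 and -1.21) and with a value of -0.51 in the limma fit of log2(TPM + 1).

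The 3 higher members were Nrp1, a semaphorin receptor of regulatory T cells (141 ± 6.24 CPM in KO and 79.1 ± 35.1 CPM in WT, log2 fold change 0.84 ± 0.20), Nt5e, the ectonucleotidase CD73 (87.7 ± 8.40 CPM in KO and 50.4 ± 15.6 CPM in WT, log2 fold change 0.79 ± 0.21), and Ebi3, a subunit of interleukin-35 (107 ± 8.74 CPM in KO and 64.3 ± 20.9 CPM in WT, log2 fold change 0.75 ± 0.20). Nrp1 kept its call without each library. Nt5e lost it without WT replicate 1 or 3 or KO replicate 2 or 3 (0.73, 0.65, 0.73 and 0.80), and Ebi3 without the same 4 libraries (0.66, 0.66, 0.72 and 0.74). Of 17 inhibitory and costimulatory receptor genes 5 were lower and 0 higher, against 2.13% and 3.17% over all tested genes. Beside Ctla4 these were Cd200 (127 ± 13.7 CPM in KO and 206 ± 17.8 CPM in WT, log2 fold change -0.70 ± 0.09), whose product quiets myeloid cells, Cd6 (log2 fold change -0.48 ± 0.11), Btla (log2 fold change -0.54 ± 0.14) and the costimulatory receptor Cd27 (log2 fold change -0.47 ± 0.11). Cd6 lost its call without KO replicate 2 (-0.42), Btla without WT replicate 2 or 4 or KO replicate 1 or 3 (-0.42, -0.51, -0.54 and -0.46) and Cd27 without WT replicate 3 or KO replicate 2 (-0.41 and -0.39). The count of lower receptors was 3 without KO replicate 2. Of 22 genes of the TGF-beta pathway 1 was called, against 5.3% over all tested genes. Tgfbr2, the type II receptor, was higher (90.4 ± 13.3 CPM in KO and 55.9 ± 16.3 CPM in WT, log2 fold change 0.68 ± 0.18). Its level in WT replicate 4 was 31.7 CPM, well below the other WT libraries, and the call was lost without it (0.52) as well as without KO replicate 1 or 3 (0.55 and 0.72).

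The other T helper programmes showed no called gene in edgeR: 0 of 19 Th17 genes and 0 of 8 Th2 and Th9 genes, against 5.3% over all tested genes. Lists of this size can lack a called gene at that share. In each list 1 gene had an unadjusted p under 0.05, and DESeq2 and limma called 0. With no filter on low counts edgeR called 1 Th17 gene, Il17f (log2 fold change -2.32, adjusted p = 0.00493). Il17a had 0 CPM in all KO libraries and in 3 of 4 WT libraries, with 0.988 CPM in WT replicate 2, and Il23r was at or below 0.823 CPM in all 7. The filter on low counts covered all 28 libraries, Th17n among them, so both genes counted as tested at these levels. Il17f stood at 0.697 ± 0.605 CPM in KO and 4.17 ± 5.09 CPM in WT (adjusted p = 0.337, edgeR). Gata3, the Th2 master regulator, stood at 114 ± 9.06 CPM in KO and 96.9 ± 5.50 CPM in WT and was not called.

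Several of the largest decreases lay outside these programmes. Serpina3f, a serine protease inhibitor, stood at 1.22 ± 0.827 CPM in KO and 16.3 ± 3.35 CPM in WT (log2 fold change -3.70 ± 0.60, adjusted p = 0.000253, edgeR), and Serpina3g, 15.12 kb away on chromosome 12, stood at 15.7 ± 4.197 CPM in KO and 53.01 ± 11.8 CPM in WT (log2 fold change -1.75 ± 0.41). The latter lost its call without KO replicate 2 (-1.56), and these paralogs can share reads. Car2, carbonic anhydrase 2, stood at 8.29 ± 0.442 CPM in KO and 71.3 ± 41.2 CPM in WT (log2 fold change -3.10 ± 0.55, adjusted p = 0.000633, edgeR). Fcrl1, a member of the Fc receptor-like family, stood at 19.5, 20.6 and 19.1 CPM in the KO libraries and 77.7, 55.5, 88.4 and 69.0 CPM in the WT libraries, with the second smallest adjusted p of the comparison (1.35e-06, log2 fold change -1.88, edgeR). Serpine2, another protease inhibitor, stood at 13.1 ± 3.04 CPM in KO and 66.2 ± 49.0 CPM in WT (log2 fold change -2.34 ± 0.46), and Il1rn, the interleukin-1 receptor antagonist, stood at 5.30 ± 1.499 CPM in KO and 21.8 ± 11.1 CPM in WT (log2 fold change -2.03 ± 0.47), the latter not called without KO replicate 1 (-1.90). Lcn6 and Lcn10 are neighbouring lipocalin genes 1.12 kb apart on chromosome 2. Lcn6 stood at 1.18 ± 0.714 CPM in KO and 17.4 ± 16.4 CPM in WT (log2 fold change -3.81 ± 0.95), and Lcn10 stood at 3.47 ± 1.12 CPM in KO and 37.7 ± 25.3 CPM in WT (log2 fold change -3.41 ± 0.82). Their calls were lost without any 1 KO replicate, and that of Lcn6 also without WT replicate 1 or 3 (log2 fold changes from -4.44 to -3.18 for Lcn6 and from -3.70 to -3.23 for Lcn10).

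The adhesion receptor Cd44, a marker of activated and memory T cells, stood at 90.9, 101 and 118 CPM in the KO libraries and 221, 207, 249.4 and 228 CPM in the WT libraries. The groups did not overlap, and the fitted level was 2.19-fold lower in KO (log2 fold change -1.13 ± 0.17, adjusted p = 6.93e-05, edgeR). The transcription factor Klf6 (log2 fold change -0.85 ± 0.11) and the p53 target kinase Plk2 (log2 fold change -1.24 ± 0.14) were lower too, and all 3 kept their calls without each library. Sgk1, a kinase of the TGF-beta and salt response, stood at 11.6, 27.97 and 15.7 CPM in the KO libraries and 39.2, 61.5, 45.3 and 59.9 CPM in the WT libraries (log2 fold change -1.502 ± 0.21, adjusted p = 2.49e-05, edgeR). Inhba, which encodes a subunit of activin A, had 0 counts in KO and 57 in the WT libraries together, at least 9.80-fold lower (against 3 counts over the KO group). Xcl1, a chemokine, had 2 counts in KO against 118 in WT, a ratio of 30.4 (8.24 to 254), with its call lost without WT replicate 1 or KO replicate 2 or 3 (fitted log2 fold changes -3.91, -4.26 and -4.14).

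The genes higher in KO had other functions. Rnf187, a ubiquitin ligase gene, stood at 159.7, 236 and 158 CPM in the KO libraries and 30.3, 31.4, 29.7 and 16.0 CPM in the WT libraries. WT replicate 4 was the lowest library and all KO libraries were far above the highest WT library (log2 fold change 2.75 ± 0.30, adjusted p = 1.51e-06, edgeR). Rps2, a protein of the small ribosomal subunit, stood at 4904, 5178 and 5629 CPM in the KO libraries and 1621, 2270, 1983 and 961 CPM in the WT libraries. This was the highest called gene by level (log2 fold change 1.62 ± 0.19, adjusted p = 3.06e-06, edgeR), and a processed pseudogene copy, Rps2-ps6, was called higher as well, so reads could be split between them. Lsm4, a component of the RNA-binding Lsm ring, stood at 130.0, 158 and 130.2 CPM in the KO libraries and 45.8, 61.3, 50.3 and 44.9 CPM in the WT libraries, with the smallest adjusted p of all genes (9.71e-07, log2 fold change 1.45 ± 0.15, edgeR). Ppp4c, the catalytic subunit of protein phosphatase 4, stood at 134 ± 11.9 CPM in KO and 48.5 ± 10.0 CPM in WT (log2 fold change 1.46 ± 0.17, adjusted p = 3.06e-06, edgeR), and the immediate early gene Ier2 stood at 177 ± 18.2 CPM in KO and 62.2 ± 24.9 CPM in WT (log2 fold change 1.48 ± 0.18, adjusted p = 5.02e-06, edgeR). Dusp2, a phosphatase that switches off MAP kinases, stood at 46.3, 76.5 and 56.9 CPM in the KO libraries and 11.1, 16.8, 17.4 and 8.36 CPM in the WT libraries (log2 fold change 2.12 ± 0.30, adjusted p = 4.41e-05, edgeR). Eng, the TGF-beta co-receptor endoglin, stood at 30.4, 29.2 and 31.8 CPM in the KO libraries and 3.87, 9.49, 7.37 and 8.71 CPM in the WT libraries, 4.13-fold higher in KO by the fit, with the KO libraries close to one another (log2 fold change 2.05 ± 0.25, adjusted p = 5.74e-06, edgeR).

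Other increases of this size were found in Hpse, heparanase (11.05 ± 4.41 CPM in KO and 1.85 ± 0.749 CPM in WT, log2 fold change 2.49 ± 0.49), Tob1, an antiproliferative factor (10.0 ± 1.20 CPM in KO and 2.64 ± 0.840 CPM in WT, log2 fold change 1.89 ± 0.35), Nav1 (log2 fold change 1.71 ± 0.39), Lysmd2 (log2 fold change 1.69 ± 0.32), Ecm1, an extracellular matrix protein (log2 fold change 1.63 ± 0.30), Donson, a replication fork factor (log2 fold change 1.70 ± 0.28), and Adssl1, an enzyme of adenine nucleotide synthesis (log2 fold change 2.00 ± 0.41). All 7 kept their calls without each library, and Donson and Adssl1 were not called in a limma fit of log2(TPM + 0.1). Acsl3, which activates fatty acids, stood at 17.7 ± 8.87 CPM in KO and 4.38 ± 0.524 CPM in WT and Tnfsf11, the cytokine RANKL, stood at 43.3 ± 22.4 CPM in KO and 12.5 ± 3.86 CPM in WT (log2 fold change 1.98 ± 0.44 and log2 fold change 1.74 ± 0.41). Both calls were lost without KO replicate 2 (1.68 and 1.29). Ccdc92 (log2 fold change 1.68 ± 0.37) was not called without KO replicate 1 (1.498). Itgb7, an integrin of gut homing, stood at 238 ± 18.1 CPM in KO and 116 ± 43.5 CPM in WT (log2 fold change 1.02 ± 0.18), and H2-Ab1, an MHC class II chain, stood at 73.1 ± 4.27 CPM in KO and 41.1 ± 7.43 CPM in WT (log2 fold change 0.84 ± 0.15). H2-Ab1 was the 1 called gene of the 14 tested genes of the MHC list, against 5.3% called over all tested genes. H2-Ob, a class II gene outside the list that lies 3.28 kb from H2-Ab1, was called higher as well (log2 fold change 0.69 ± 0.19, adjusted p = 0.0313, edgeR).

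The level of many of these genes in WT untreated cells was low in comparison with all other groups of the study. Rps2 stood at 1709 ± 565 CPM (SD, n = 4) in WT untreated iTreg and 1921 ± 466 CPM (n = 4) in WT untreated Th17n. It stood at 5237 ± 366 CPM in KO untreated iTreg and 4983 ± 305 CPM in KO untreated Th17n (n = 3 each). With DFMO it was 6124 ± 1402 CPM in WT and 6042 ± 473 CPM in KO iTreg, and 5862 ± 338 CPM in WT and 5429 ± 362 CPM in KO Th17n. Every WT untreated library (961 to 2417 CPM) lay below every library of the other 6 groups (lowest 4525 CPM). Rnf187 had the same order: 26.9 ± 7.26 and 29.8 ± 0.488 CPM in WT untreated iTreg and Th17n, 184 ± 44.7 and 169.7 ± 20.8 CPM in the KO untreated cultures, and between 349.8 ± 175 and 479 ± 29.4 CPM in the 4 group means with DFMO. One iTreg library with DFMO, WT replicate 4, stood at 91.8 CPM, against 408 to 483 CPM in the other WT libraries of that group. In 173 of the 348 genes higher in KO (49.7%) the 2 WT untreated group means were the lowest of the 8 group means, against 4.64% of all tested genes. The call itself fixes the WT untreated iTreg mean below that of KO, so this share is a description and no test.

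**Figure D3:**
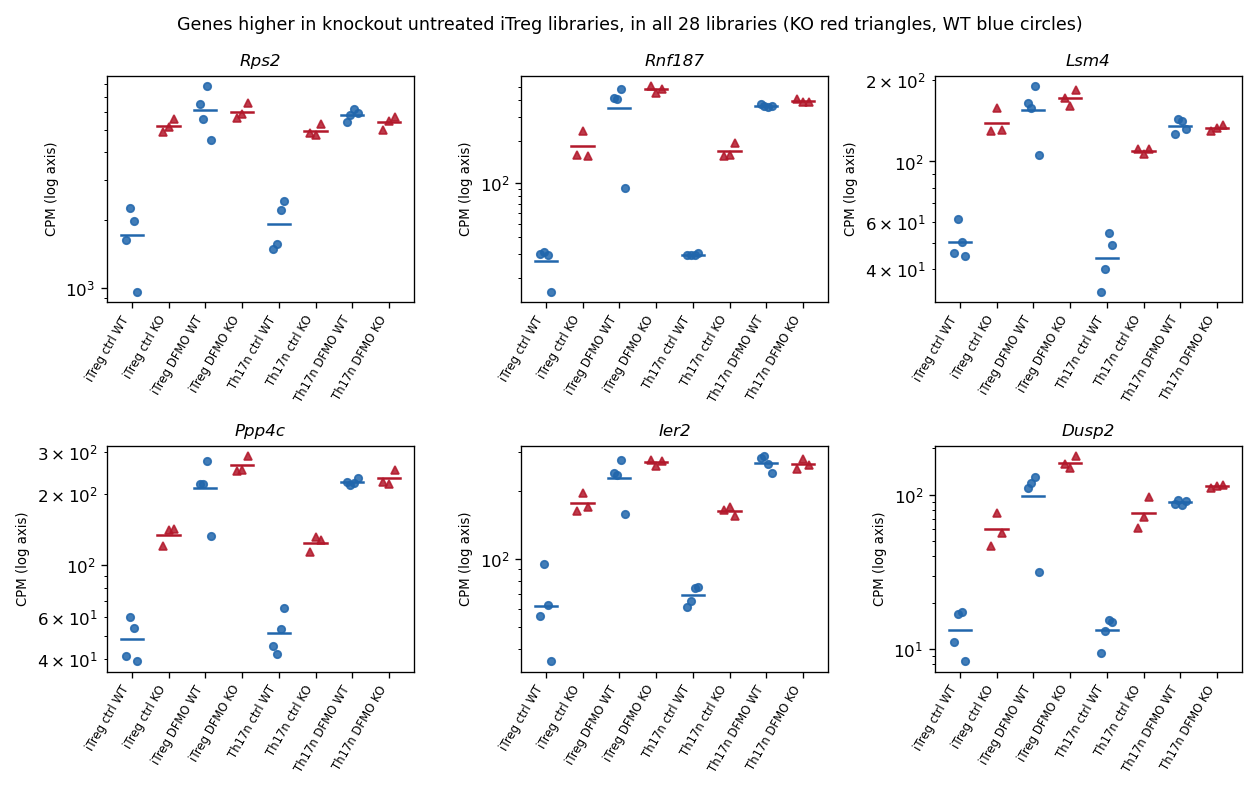
CPM (log axes) of 6 genes higher in KO untreated iTreg, one point per library in the 8 groups (WT blue circles, n = 4; KO red triangles, n = 3), with a line at each group's mean. The WT untreated iTreg and Th17n points are the lowest in each panel (Rps2 means 1709 and 1921 CPM), and WT replicate 4 of the iTreg cultures with DFMO lies below the other libraries of its group.

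KO and WT also differed in the other cultures of the same animals, which are no independent samples of the genotypes. In Th17n cells without DFMO, 334 genes (3.04%) were called, 252 higher (2.29%) and 82 lower (0.746%). Of the 348 genes higher in KO untreated iTreg 162 were called higher there too, 46.6% of the 348 and 64.3% of the 252. Of the 234 lower genes 28 were called lower there, 12.0% of the 234 and 34.1% of the 82. In iTreg cells with DFMO 455 genes (4.14%) were called, 210 higher (1.91%) and 245 lower (2.23%). The shared calls were 52 higher genes (14.9% of the 348, 24.8% of the 210) and 63 lower genes (26.9% of the 234, 25.7% of the 245), and 1 gene higher in KO untreated iTreg was lower in KO with DFMO.

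Of the 6 Th1 list members lower in untreated iTreg, 4 were called lower in KO iTreg with DFMO too (Gzmb, Tbx21, Il18r1 and Eomes), and Il12rb2 (-1.13, adjusted p = 0.332, edgeR) and Fasl (-1.18, adjusted p = 0.195) were not. All 8 lower interferon-stimulated members were called lower there. The log2 fold changes there were -6.24 for Ly6a, -4.23 for Gzmb, -4.71 for Tbx21, -3.84 for Iigp1, -2.17 for Irf1 and -1.81 for Gbp2, with edgeR adjusted p from 9.78e-06 (Tbx21) to 0.000351 (Gzmb). In untreated Th17n cells edgeR called 0 of the 6 Th1 and 0 of the 8 interferon-stimulated members lower. Ly6a, Gzmb, Tbx21, Iigp1, Irf1 and Gbp2 were not called there, with log2 fold changes of 0.08, -0.29, -1.28, -4.60, -0.19 and 0.27 in the same order. The Iigp1 value there rests on 0.0840 ± 0.146 CPM in KO and 3.55 ± 3.28 CPM in WT. For Ly6a the level in Th17n cells was high in both genotypes (1206 ± 120.3 CPM in KO and 1142 ± 117 CPM in WT), and for Gzmb it was low in both (8.40 ± 1.38 and 10.49 ± 2.43 CPM). Rps2, Lsm4 and Ppp4c were called higher in KO untreated Th17n (1.37, 1.31 and 1.26) and were not called in iTreg with DFMO (-0.02, 0.15 and 0.31). Kdm6b was called lower in KO iTreg with DFMO (log2 fold change -1.01 ± 0.20, adjusted p = 0.00251, edgeR).

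**Figure D4:**
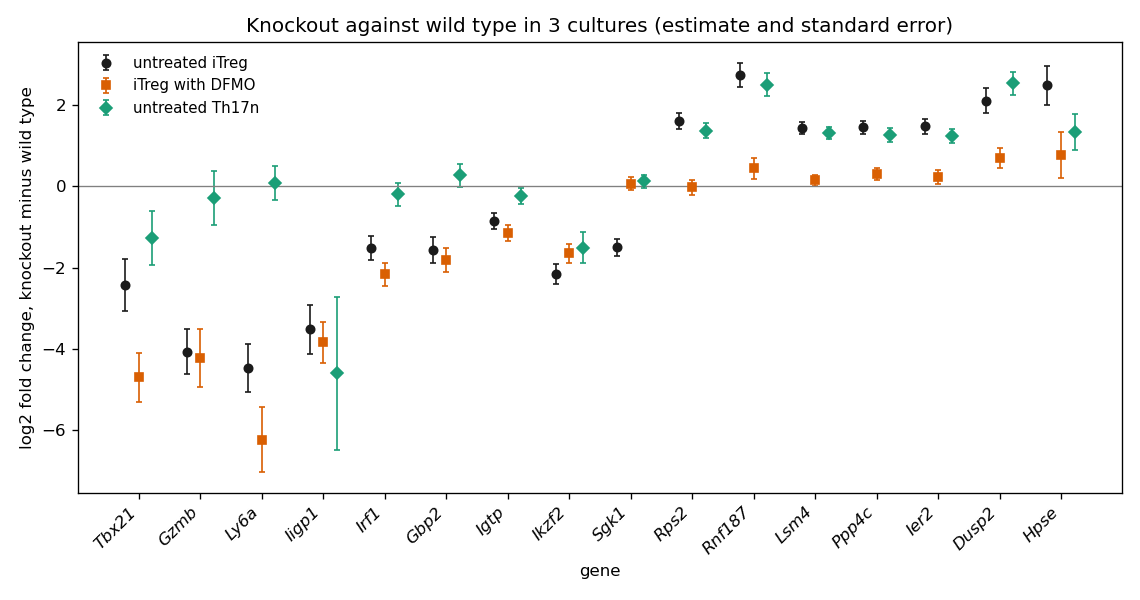
Log2 fold change of KO against WT (points) with its standard error (bars) for 16 genes in untreated iTreg (black), iTreg with DFMO (orange) and untreated Th17n (green). Ly6a is far below 0 in both iTreg cultures and at 0.08 in Th17n, while Rps2 and Rnf187 are above 0 in both untreated cultures and at -0.02 and 0.45 with DFMO.

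The difference between cultures was tested gene by gene as an interaction. Against untreated Th17n 3 genes (0.0273%) had a KO effect that differed, all lower in iTreg, and 674 had an unadjusted p under 0.05. They were Inhba, Ly6a (difference of log2 fold changes -4.56 ± 0.71, adjusted p = 0.00579, edgeR) and Sgk1 (-1.63 ± 0.27, adjusted p = 0.00642). Inhba was at 0 in KO untreated iTreg and at 35.5 ± 7.49 CPM in KO untreated Th17n, against 3.64 ± 1.93 and 28.05 ± 1.78 CPM in WT. Without KO iTreg replicate 3 none of the 3 was called (Ly6a -4.48, Sgk1 -1.52). Without KO iTreg replicate 1 the count was 1, and Sgk1 lost its call (-1.38). The count was 8 without WT iTreg replicate 2 and 5 without KO Th17n replicate 2. With the replicate number as a block 8 genes were called, 8 lower and 0 higher. The Sgk1 difference was not called in limma fits of log2 TPM (-1.46 with a pseudocount of 1), and the Ly6a difference was not called in limma voom with the animal as a random effect (-4.51, adjusted p = 0.0522).

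Against iTreg with DFMO the KO effect differed in 27 genes (0.246%), 24 with a more positive and 3 with a more negative effect in untreated cells, and 1080 had an unadjusted p under 0.05. The largest positive differences were those of Rnf187 (2.30 ± 0.40, adjusted p = 0.00428, edgeR), Kctd13 (1.69), Rps2 (1.63), Plbd2, a lysosomal protein (1.54), and B3gnt2, a glycosyltransferase (1.51). The negative ones were Tspan9 (-2.91 ± 0.57, named after its values were seen), Sgk1 (-1.57 ± 0.26) and Ifngr1, the interferon-gamma receptor 1 (-1.09 ± 0.16). Of these 3 only Sgk1 was called in the untreated comparison. Ifngr1 stood at 137 ± 17.2 CPM in KO and 165 ± 19.3 CPM in WT without DFMO (log2 fold change -0.27 ± 0.11, adjusted p = 0.160) and was higher in KO with DFMO (0.82, adjusted p = 5.05e-05, edgeR). The count was 72 with the replicate block (63 and 9). It was 99 without WT DFMO replicate 4, 66 without WT untreated replicate 2, 46 without WT DFMO replicate 2, 43 without WT untreated replicate 4, 17 without KO untreated replicate 3, 16 without WT DFMO replicate 3 and 15 without KO DFMO replicate 2. A fit of log2(TPM + 1) in limma gave 8 positive and 11 negative differences. Fitted on the compared groups alone, Rnf187, Kctd13, Rps2, Plbd2, B3gnt2 and Sgk1 lost their calls (edgeR adjusted p from 0.0598 to 0.152). The differences of Rnf187, Kctd13 and Sgk1 were also not called in limma fits of log2 TPM.

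Among the growth and metabolism lists, ribosome biogenesis and polyamine metabolism held called genes in both directions. In ribosome biogenesis 4 of 29 genes were lower (Nop58, Rrp9, Nop56 and Nop2) and 1 was higher, with a median of -0.30 and 27 of 29 values below 0. The shares over all tested genes were 2.13% lower and 3.17% higher. Nop58, a core protein of box C/D small nucleolar particles, stood at 143, 159 and 139.5 CPM in the KO libraries and 198, 216, 212 and 205 CPM in the WT libraries (log2 fold change -0.50 ± 0.09, adjusted p = 0.000530, edgeR). Nop56, its partner, stood at 264 ± 33.1 CPM in KO and 346 ± 3.36 CPM in WT (log2 fold change -0.39 ± 0.09), Rrp9, a factor bound to the U3 small nucleolar RNA, stood at 55.4 ± 6.09 CPM in KO and 80.7 ± 7.55 CPM in WT (log2 fold change -0.55 ± 0.12) and Nop2, an rRNA methyltransferase, stood at 78.6 ± 9.88 CPM in KO and 103 ± 3.91 CPM in WT (log2 fold change -0.39 ± 0.12). Fbl, the methyltransferase of the same box C/D particles, was higher (63.5 ± 11.9 CPM in KO and 34.5 ± 9.13 CPM in WT, log2 fold change 0.86 ± 0.23). The count of lower members was 2 without KO replicate 1, 2 without KO replicate 3, 10 with the replicate block and 8 with the GC offset. Nop56 lost its call without KO replicate 1 or 3 (-0.31 and -0.37), Rrp9 without KO replicate 3 (-0.48) and Fbl without WT replicate 1 or 4 or KO replicate 2 or 3 (0.78, 0.77, 0.75 and 0.85). Nop2 lost it without WT replicate 1, 3 or 4 or any 1 KO replicate (-0.47 to -0.29) and with the replicate block (adjusted p = 0.0589).

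All 13 protein-coding genes of the mitochondrial genome had values below 0, from -1.41 for mt-Atp6 to -0.32 for mt-Cytb, with a median of -0.51, and edgeR called none of them (3 at an unadjusted p under 0.05, 0 by DESeq2 or limma). With no filter on low counts, however, edgeR called 9 of the 13. Their median GC content was 37.1%, in the range where lower calls were most common. Of 37 nuclear genes of oxidative phosphorylation 1 was called, against 5.3% over all tested genes. Cycs, cytochrome c, was lower (34.4 ± 6.45 CPM in KO and 61.6 ± 10.2 CPM in WT, log2 fold change -0.85 ± 0.18, adjusted p = 0.00431, edgeR). In polyamine metabolism 1 of 19 genes was lower and 2 were higher, against 2.13% lower and 3.17% higher over all tested genes. Odc1, which encodes the target of DFMO, stood at 72.0, 99.5 and 90.3 CPM in the KO libraries and 76.5, 107, 84.2 and 98.9 CPM in the WT libraries and was not called (log2 fold change -0.07 ± 0.16, adjusted p = 0.872, edgeR). Smox, spermine oxidase (47.5 ± 9.97 CPM in KO and 24.3 ± 8.66 CPM in WT, log2 fold change 0.98 ± 0.20), and the polyamine transporter Atp13a2 (40.5 ± 9.24 CPM in KO and 21.97 ± 2.49 CPM in WT, log2 fold change 0.89 ± 0.18) were higher, and Slc3a2, a chain of amino acid transporters, was lower (358 ± 17.1 CPM in KO and 513 ± 69.9 CPM in WT, log2 fold change -0.52 ± 0.11). Smox and Slc3a2 kept their calls without each library, and Atp13a2 lost it without KO replicate 1 (0.69). edgeR called none of 34 DNA replication genes, 25 genes of G2 and M phase, 24 genes of cholesterol and fatty acid synthesis or 19 genes of fatty acid oxidation. At an unadjusted p under 0.05 these lists held 0, 1, 0 and 3 genes, and DESeq2 called 0, 0, 0 and 1. edgeR called 1 of 22 glycolysis genes, Aldoc (log2 fold change 0.47 ± 0.14). The Aldoc call was lost without WT replicate 2 or 3 or any 1 KO replicate (0.35 to 0.50).

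**Figure D5:**
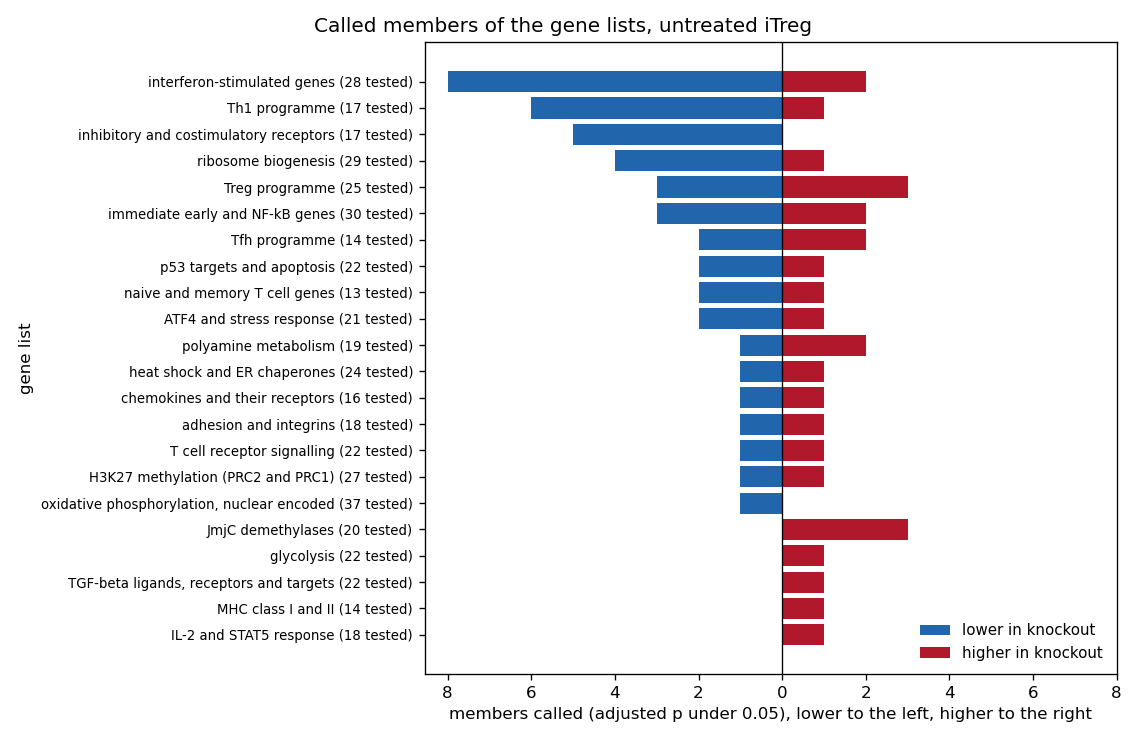
Number of members called lower (blue, left) or higher (red, right) in KO untreated iTreg for each gene list with a called member, with the number tested in brackets. The interferon-stimulated list has 8 lower and 2 higher of 28 and the Th1 list 6 lower and 1 higher of 17, while lists with no called member are not drawn. Among all tested genes 2.13% were called lower and 3.17% higher.

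Around Kdm6b itself, 77 genes within 2 Mb on chromosome 11 were tested, of which 3 were lower and 4 higher in KO, against 5.3% called over all genes. The nearest tested gene, Naa38, lies 1.83 kb away and was not called (log2 fold change -0.02 ± 0.12). The nearest called gene was Cyb5d1, a cytochrome b5 domain protein gene (GRCm38 chromosome 11, 69391925 to 69395631, minus strand), which ends 2.88 kb from Kdm6b (69398508 to 69413675, minus strand). Cyb5d1 stood at 5.43, 3.70 and 4.35 CPM in the KO libraries and 10.4, 10.7, 8.68 and 10.1 CPM in the WT libraries, without overlap (log2 fold change -1.14 ± 0.24, adjusted p = 0.00431, edgeR), and was called under every alternative tried. The other lower genes were Pfas, an enzyme of purine synthesis (log2 fold change -0.44 ± 0.10), and Pik3r6, a subunit of phosphoinositide 3-kinase, with 0 counts in KO and 20 in WT (at least 3.44-fold lower). The higher ones were Myh10 (log2 fold change 1.03 ± 0.27), Gps2 (log2 fold change 0.48 ± 0.15), Alox15 (log2 fold change 1.33 ± 0.39) and Rnf167 (log2 fold change 0.39 ± 0.10). All but Cyb5d1 lost their calls when single libraries were left out. Over all libraries left out, the log2 fold changes ran from -0.48 to -0.40 for Pfas, -5.56 to -5.003 for Pik3r6, 0.94 to 1.11 for Myh10, 0.38 to 0.61 for Gps2, 1.11 to 1.53 for Alox15 and 0.34 to 0.49 for Rnf167. The Pik3r6 values were fitted with KO at 0 counts and are no bound. The libraries whose loss ended the call were KO replicates 1 and 3 for Pfas, WT replicate 1 and KO replicates 1 and 3 for Myh10, WT replicates 1 and 3 and KO replicates 1 and 3 for Rnf167, WT replicates 1 and 3 and all 3 KO replicates for Pik3r6, WT replicates 1, 2 and 4 and all 3 KO replicates for Gps2, and all WT replicates and KO replicates 2 and 3 for Alox15. In limma on log2(TPM + 1) the value of Myh10 was 0.15 (adjusted p = 0.872) and that of Pik3r6 -0.55 (adjusted p = 0.213). In untreated Th17n cells Cyb5d1 was not called (0.08 ± 0.22).

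Further calls depended on the model. In limma voom with the animal as a random effect 21 of the 106 followed genes lost their calls (adjusted p from 0.0503 to 0.169), among them Il12rb2, Entpd1, Gbp5, Irgm1, Serpine2, Il1rn, Xcl1, Tbkbp1, Lcn6, Lcn10, Acsl3, Tnfsf11 and Fbl. Fitted on the compared groups alone 25 lost them, among them Fasl, Gbp5, Ifit1, Ddx58, Jmjd6, Nrp1, Cd27, Btla, Tgfbr2, Tcf7, Nop56 and Myh10. On log2(TPM + 0.1) 37 lost them, among them Il18r1, Gbp4, Gbp5, Gbp6, Irgm1, Ccl5, Car2, Kdm5b, Nrp1, Nt5e, Tgfbr2, Smox and Slamf6. With the compared libraries thinned to the smallest total, 12 lost them, among them Fasl, Irgm1, Ifit1, Btla and Eomes, whose value was -1.45. On log2(TPM + 1) the value of Cd27 was -0.30, that of Ddx58 0.54 and that of Hpse 1.55, and Cd27 and Ddx58 were not called.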

How the data were processed

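RNA sequencing (full-length libraries, 75 bp paired reads) gave 28 libraries in 8 groups, assigned from the labels. Expected counts (estimated counts per gene) and TPM were made by the authors and deposited in tables of the whole series, and the submitters' processing notes name kallisto and GRCm38, without a version or annotation. Of the deposited expected counts 67.2% were whole within 0.001, and all were rounded. All 20891 gene names matched GENCODE release M21, used for coordinates and GC content. Promoter sequences came from RefSeq (GRCm38.p6).

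The members and lists were chosen with earlier results of these data known. Differences were tested with edgeR 4.0.16 in R 4.3.3 (quasi-likelihood, TMM, filterByExpr, 8 group means over all 28 libraries, 20 residual degrees of freedom). Alternatives used DESeq2 1.42.0, limma 3.58.1 (on log2(TPM + 1) and log2(TPM + 0.1) for genes with a mean TPM of at least 1, and voom with the animal as a random effect), other normalization, no filter, thinned counts, a GC offset, a replicate block and leaving out each library. Each animal gave 4 libraries, and the replicates within a group are separate animals. The main model had no animal term, so the 4 libraries of an animal counted as independent in its 20 residual degrees of freedom. The interaction tests likewise did not use the pairing of cultures by animal, so their p-values do not measure the spread of the within-animal difference. Same-numbered KO and WT libraries correlated at 0.104, 0.189 and 0.123 in their deviations from the group means, which counted as pairing by the rule used (over 0.1 in every pair), although KO replicate 3 correlated most with WT replicate 4 (0.165). The block value is given where it changes a call. Where a fold was taken against 0 counts, 3 counts over the group stood in, and counting intervals are 95% exact and cover counting error only.

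Genes named are Kdm6b, Kdm6a, Foxp3, Odc1, Il17a, Il17f and Il23r, the 14 largest called changes each way with at least 10 CPM and no overlap, up to 4 called members per list (all where 5 or fewer were called), the 5 largest interactions each way, and called genes within 2 Mb of Kdm6b. Some further genes, among them the other called interferon genes, Ifng, Isg15, Irf7, Irgm2, Tgtp1, Tbkbp1, Gata3, Dhx58, H2-Ob, Cd8a, Naa38 and Tspan9, were named after their values were seen. Results for a few genes that were tested and counted are not reported here. Of 781 list entries 763 matched. On simulated counts over 10871 genes the untreated iTreg test recovered 42.4% of 1.5-fold, 73.1% of 2-fold and 84.8% of 4-fold changes, with 5 of 10672 unchanged genes called. These counts were drawn independently with the model's own dispersions, without the GC tilt or any correlation within an animal. They therefore do not give the error rate in the real libraries.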

Additional observations from a re-analysis of the deposited data

Results flagged for a closer look

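Among the 4 WT untreated iTreg libraries, single libraries stood apart from the other 3 in 7 of 128 genes checked, and chance alone gives about 5% per gene. WT replicate 2 was the high library for Il17a (0.988 CPM, 0 in the others), Nav1 (8.30 CPM, against 3.14 to 3.68) and Hpse (2.96 CPM, against 1.39 to 1.58). WT replicate 3 was the high library for Il23r (0.263 CPM, 0 in the others). WT replicate 4 was the low library for Rnf187 (16.0 CPM, against 29.7 to 31.4) and Tgfbr2 (31.7 CPM, against 61.5 to 67.6), and WT replicate 1 for Pim1 (83.3 CPM, against 110.1 to 114).

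The KO effect differed between cultures by the interaction test of edgeR in the main model in these genes. Several of these calls depended on the model, as given above. Relative to untreated Th17n cells the difference of log2 fold changes was -7.13 for Inhba (fitted with KO iTreg at 0 counts, so no bound), -4.56 for Ly6a and -1.63 for Sgk1. Relative to iTreg cells with DFMO it was 2.30 for Rnf187, 1.69 for Kctd13, 1.63 for Rps2, 1.54 for Plbd2, 1.51 for B3gnt2, 1.30 for Lsm4, 1.25 for Ier2 and 1.15 for Ppp4c. On the negative side it was -2.91 for Tspan9, -1.57 for Sgk1 and -1.09 for Ifngr1.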

How the results depend on the processing

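Of the 582 calls 574 were kept with the replicate block, which called 831 genes (462 higher, 369 lower), and 2 of the 582 changed sign in the limma fits of log2 TPM and none under the other alternatives. Fitted on the compared groups alone the count was 307, and without KO replicate 3 and WT replicate 2 together (chosen after seeing the data) it was 386. Limma on log2(TPM + 1) gave 199 higher and 229 lower and on log2(TPM + 0.1) 192 and 228, against 348 and 234. Leaving out each library gave 284 to 614 calls in untreated iTreg, 256 to 687 in iTreg with DFMO (455) and 126 to 337 in untreated Th17n (334). The DFMO comparison had 190 calls on its own groups and 739 with GC offset and block, and Th17n had 198 on log2(TPM + 0.1). The interaction with Th17n (3 genes) had 27 calls with no filter on low counts, 8 with the replicate block, 8 on the compared groups, 5 with the GC offset, 9 with both offset and block, 8 by DESeq2, and 0 to 8 without each library. The interaction with DFMO (27 genes) had 146, 72, 4, 49, 96 and 95 calls in the same order, 52 by limma voom, and 15 to 99 without each library. Of 106 called named genes 37 kept their call under every alternative and 53 without each library, and 5 of 22 others were called somewhere. The block ended the calls of Nop2 and Gps2 and, among others, added those of Ifng and Isg15. KO libraries were mostly shallower. With the compared libraries thinned to the smallest total 503 genes were called, and 455 of the 582 were among them. The cause of the other changes was not tested.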

Other observations

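Some lists of T cell state and stress held called genes in both directions in edgeR, where 3.17% of all tested genes were higher and 2.13% lower. Of 14 tested genes of the follicular helper list 2 were higher (Slamf6 and Tcf7) and 2 lower (Btla and Sh2d1a). Tcf7, which encodes TCF-1, a factor of naive and memory-like T cells, stood at 94.4 ± 9.73 CPM in KO and 71.7 ± 6.27 CPM in WT (log2 fold change 0.39 ± 0.10, adjusted p = 0.0179, edgeR), and Slamf6, a receptor of such cells, stood at 76.9 ± 4.24 CPM in KO and 42.7 ± 8.02 CPM in WT (log2 fold change 0.86 ± 0.22, adjusted p = 0.0166, edgeR). Sh2d1a, the adaptor SAP that signals from that receptor, stood at 129.7 ± 3.87 CPM in KO and 184 ± 26.8 CPM in WT (log2 fold change -0.51 ± 0.14). The call of Tcf7 was lost without KO replicate 1 (0.41) or KO replicate 3 (0.31), that of Slamf6 without WT replicate 3 (0.82), KO replicate 1 (0.83) or KO replicate 3 (0.84) and that of Sh2d1a without WT replicate 1 (-0.43), WT replicate 3 (-0.45), KO replicate 1 (-0.50), KO replicate 2 (-0.52) or KO replicate 3 (-0.49). Of 13 genes of naive and memory T cells Tcf7 was the 1 higher, and Cd44 and Ly6c1 were the 2 lower.

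In the 30 immediate early and NF-kB genes Ier2 and Dusp2 were the 2 higher members and Klf6, Nr4a3 and Atf3 the 3 lower ones. For this and the next lists, the shares over all tested genes were 3.17% higher and 2.13% lower. Nr4a3, a nuclear receptor induced by T cell receptor signals, stood at 110.1 ± 6.49 CPM in KO and 175 ± 14.9 CPM in WT (log2 fold change -0.67 ± 0.16), and Atf3, a stress-induced factor, stood at 12.0 ± 0.0631 CPM in KO and 19.8 ± 2.91 CPM in WT (log2 fold change -0.72 ± 0.19). Nr4a3 lost its call without KO replicate 3 (-0.62) and Atf3 without WT replicate 3 (-0.65), WT replicate 4 (-0.65), KO replicate 1 (-0.72), KO replicate 2 (-0.70) or KO replicate 3 (-0.72). Of 21 genes of the ATF4 and stress response Ddit4, an inhibitor of mTORC1, was higher (73.9 ± 3.85 CPM in KO and 44.1 ± 7.92 CPM in WT, log2 fold change 0.73 ± 0.17), and Atf3 and the mitochondrial folate enzyme gene Aldh1l2 (log2 fold change -1.04 ± 0.27) were lower. Ddit4 kept its call without each library, and Aldh1l2 lost it without WT replicate 1 (-0.98), WT replicate 3 (-0.99), KO replicate 2 (-0.95) or KO replicate 3 (-1.01). Of 22 p53 target and apoptosis genes Mcl1, a survival factor, was higher (38.6 ± 3.28 CPM in KO and 27.5 ± 4.39 CPM in WT, log2 fold change 0.47 ± 0.12), and Plk2 and Aen (log2 fold change -0.45 ± 0.13) were lower. Mcl1 lost its call without WT replicate 3 (0.39), KO replicate 1 (0.44) or KO replicate 2 (0.45) and Aen without WT replicate 1 (-0.39), WT replicate 3 (-0.36), KO replicate 1 (-0.50), KO replicate 2 (-0.36) or KO replicate 3 (-0.46). Of 18 genes of interleukin-2 and STAT5 signalling 1 was called: Pim1, a kinase induced by that pathway, was higher (260.2 ± 132 CPM in KO and 104 ± 14.2 CPM in WT, log2 fold change 1.32 ± 0.40), a call lost without WT replicate 1 (1.24), WT replicate 2 (1.36), WT replicate 3 (1.39), WT replicate 4 (1.37), KO replicate 1 (1.27) or KO replicate 3 (0.95).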
